A study of Mus musculus with 3 samples.

Results

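Cytokine receptors of B cells are assembled from chains that sit in the membrane, and this account covers 10 such genes: Il2rg, Il4ra, Il5ra, Il6ra, Il6st, Il7r, Csf2rb, Ifngr1, Ifngr2 and Ifnar1. They were chosen by name as interleukin, GM-CSF and interferon receptor chains other than those of IL-10. Of the 10 genes, 9 had probe sets annotated to that symbol alone, 10 probe sets in all among 12588 that are not controls, with a pair for Il6st and 1 each for the others. Another probe set was shared by Csf2rb and its neighbour and near copy Csf2rb2, and is given apart. No probe set was listed for Il2rg, the common gamma chain, which is not analysed here.

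These receptors have no kinase of their own. Ligand binding brings a ligand-specific chain and a shared chain together, JAK kinases bound to their tails phosphorylate them, and STAT factors are recruited, activated and sent to the nucleus, where they induce survival genes and their own inhibitors. The common gamma chain serves IL-2, IL-4 and IL-7, the common beta chain serves IL-3, IL-5 and GM-CSF, gp130 serves IL-6, and the interferons use pairs of their own. In B cells IL-4 drives class switching, IL-5 supports B-1 cells, IL-6 supports plasma cells, and IL-7 supports precursors.

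RNA of LNC, a malignant B-1 cell line that came from a New Zealand Black mouse lymph node at an age of 1 year, was measured on 3 Affymetrix arrays, 1 for each group. The cells of the first received an IL-10 antisense oligonucleotide at 20 uM, those of the second a scrambled oligonucleotide at 20 uM that controls for effects of any oligonucleotide, and those of the third nothing, with RNA taken at 24 h. The groups share the line, which stands for malignant cells of 1 mouse, and whether an array held 1 culture or several was not given in the sources used here. With 1 array per group no test was possible, no value below has a replicate error, and each difference compares arrays, not conditions.

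Il10, the targeted gene, read 13950, 5616 and 5164 on the antisense, scrambled and untreated arrays, so the RNA was 2.70-fold higher than untreated where the label names the antisense. The arrays hold no protein values, and the cause of this difference was not tested. The array is called the array labelled antisense here. The B cell label was met by 8 of 11 B cell markers above the noise floor on the 3 arrays, among them Cd79a, Cd79b, Ms4a1, Pax5 and Ighm, while Cd22, Cr2 and Fcer2a were below it. Of 4 B-1 markers, Cd5, Spn and Itgam were below the floor on the 3 arrays and Plscr1 was above it. Of T and NK cell markers 2 of 14 were above it on each array, Cd4 and Lat, with Cd3d, Cd3e, Cd3g and Cd8a below it throughout. Of macrophage and granulocyte markers 5 to 6 of 15 were above it. Cd14, Fcgr1, Csf3r, Cd68 and Elane were above it on the 3 arrays, while Lyz2, Adgre1 and Itgam were below it throughout. Of stromal markers 1 to 2 of 9 were above it. The summed intensity of the markers above the floor was 225800 to 292300 for B cells, 3476 to 4600 for T and NK cells, 7843 to 9332 for macrophages and granulocytes and 996.5 to 1485 for stroma. Most of the B cell sum is Ighm, which read 145500, 183800 and 155200 on the arrays labelled antisense, scrambled and untreated. Levels of different probe sets are not comparable, so these sums do not give the proportions of cell types. The part of other cell types in the values below was not tested.

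The share of receptor chains above the noise floor was near or under that of all named genes. The noise floor was 595.9 on the scaled intensity. It was set at 2 robust standard deviations of those values that lie below 0, since a mismatch signal is subtracted from each perfect match. Of the 9 chains, 4 were above the floor on the array labelled antisense (44.4%), 3 after the scrambled oligonucleotide and 3 without treatment (33.3% each), where 49.2% to 49.8% of the 8220 named genes were. Csf2rb alone was above it on the 3 arrays, where 3518 of the 8220 named genes were. With 9 chains, these counts are not set apart from those of all named genes. Il7r, Il5ra, Ifngr1 and Ifngr2 were below it on each. A value below the floor has no order here and does not show that the RNA was absent. In RNA of a whole culture, fewer cells with a transcript and less of it per cell cannot be told apart.

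**Figure D1:**
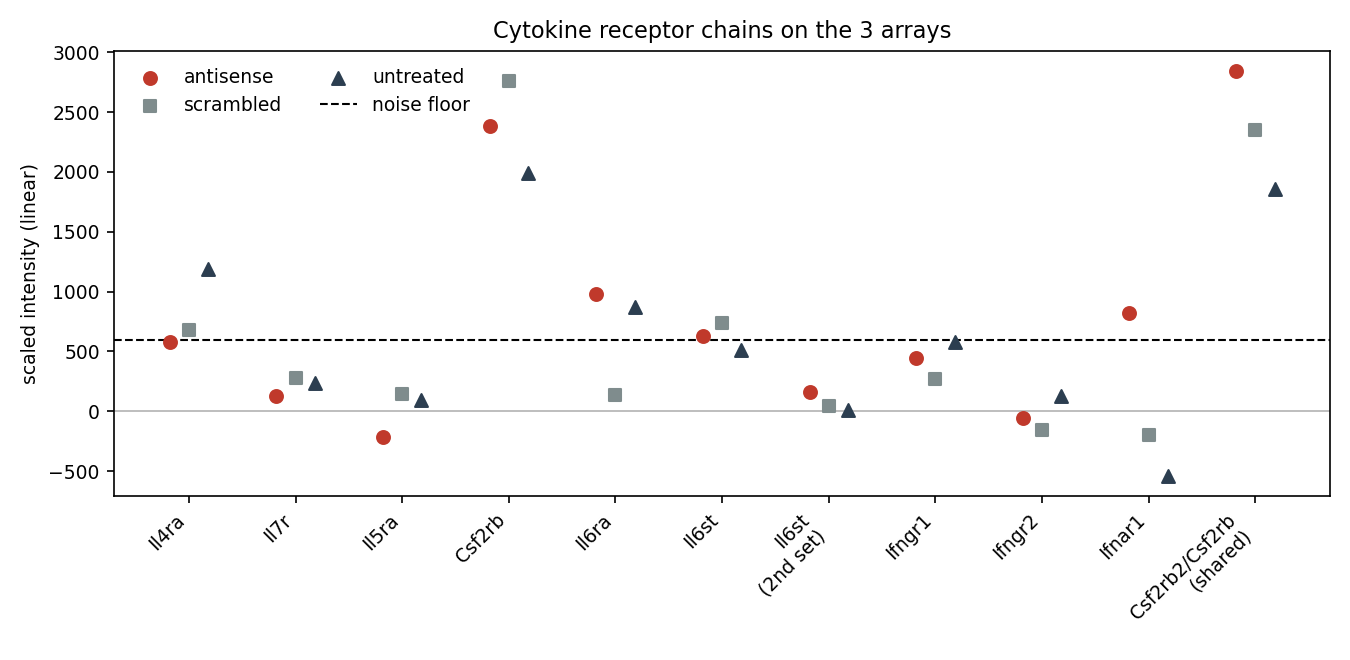
Scaled intensity (linear, y axis) of each probe set of the receptor chains (x axis) on the array labelled antisense (circles), the scrambled array (squares) and the untreated array (triangles), 1 value per array. The dashed line is the noise floor of 595.9; Csf2rb and the probe set it shares with Csf2rb2 are the only ones above it on the 3 arrays.

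No receptor chain could be shown to be at least 2-fold apart in any of the 3 comparisons. Differences with 1 value under the floor are lower bounds, so the true difference of Il4ra, Il6ra, Il6st or Ifnar1 can be larger than the one given. A gene entered a comparison when any of its values was above the floor, values below it were set to it, and 5 of the 9 chains entered: Il4ra, Csf2rb, Il6ra, Il6st and Ifnar1. Of the 8220 named genes, 4643 entered. Among all 6127 probe sets that entered, 4.85% were at least 2-fold apart between the array labelled antisense and the untreated array, 6.02% between it and the scrambled array and 3.10% between the scrambled and untreated arrays, so 0 of 5 is close to this background. A yardstick of error was taken as the 95th percentile of how far apart the control arrays lie, in either direction, over the 300 probe sets nearest in level; it is 2.28-fold at an intensity of 1000 and 1.80-fold at 2000. With values set to the floor, no chain was past it on the log2 scale in any comparison, where 8.96%, 11.1% and 4.08% of all probe sets were, in the same order of comparisons. Since the yardstick is built on the scrambled and untreated arrays, the share past it between these is set by its construction.

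Of the common gamma chain group, Il4ra could be read. It encodes the alpha chain that binds IL-4 and, with a different partner, IL-13. Il4ra read 576.4 on the array labelled antisense, 678.2 after the scrambled oligonucleotide and 1191 without treatment. Both oligonucleotide arrays were low and the untreated array was high. Against untreated the array labelled antisense, at the floor, was at least 1.998-fold lower, a log2 difference of -0.999 or below. This bound does not say on which side of 2-fold, or of the yardstick of 2.19-fold at this level, the difference lies. The scrambled array was 1.76-fold lower than untreated. The array labelled antisense and the scrambled array differed by a log2 value of -0.19, and this sign turned to 0.28 with scaling to the spike-in controls, bacterial RNAs of known amount that were lower on the array labelled antisense. Il7r, the IL-7 receptor alpha chain of B cell precursors, read 127.3, 274.1 and 232.0 on the arrays labelled antisense, scrambled and untreated.

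Of the common beta chain group, Csf2rb could be read on the 3 arrays. It encodes the signalling chain shared by the receptors for IL-3, IL-5 and GM-CSF. Csf2rb read 2382 on the array labelled antisense, 2761 after the scrambled oligonucleotide and 1990 without treatment. The scrambled array was the highest and the untreated array the lowest. The array labelled antisense was 1.20-fold above untreated and 1.16-fold below scrambled, both within the yardstick of 1.60-fold, so its neighbours in this order are not apart from it. The scrambled array was 1.39-fold above untreated. With spike-in scaling the array labelled antisense was above both, by log2 differences of 0.89 and 0.30.

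The probe set shared by Csf2rb and Csf2rb2 put the arrays in another order. It read 2843 on the array labelled antisense, 2353 after the scrambled oligonucleotide and 1853 without treatment. Here the array labelled antisense was the highest, by 1.53-fold over untreated and 1.21-fold over scrambled, again within the yardstick of 1.60-fold. Csf2rb2, the mouse copy that serves IL-3 alone, read 868.5, 736.5 and 856.7 in a probe set of its own. Of the ligand-binding partners of the common beta chain, Il5ra, the IL-5 receptor alpha chain of B-1 cells and eosinophils, read -217.5, 146.8 and 97.03 on the arrays labelled antisense, scrambled and untreated. Csf2ra, the GM-CSF receptor alpha chain, read 818.2, 512.4 and 653.5, and Il3ra, the IL-3 receptor alpha chain, read 696.7, 269.9 and 992.4, in the same order of arrays. The signalling chain was thus above the floor on the 3 arrays, Il5ra on none, and Csf2ra and Il3ra on the array labelled antisense and the untreated array.

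Of the gp130 group, Il6ra was lowest on the scrambled array. It encodes the chain that binds IL-6 before gp130 joins it. Il6ra read 979.1 on the array labelled antisense, 136.4 after the scrambled oligonucleotide and 869.6 without treatment. The scrambled array was low, below the floor, and both others were above it. Against scrambled the array labelled antisense was at least 1.64-fold higher, a bound that does not say whether it is past the yardstick of 2.24-fold. Against untreated it was 1.13-fold higher, within the yardstick. Il6st, the gp130 chain itself, read 629.6, 741.1 and 513.7 in its brighter probe set and 160.1, 45.52 and 7.503 in the other, on the arrays labelled antisense, scrambled and untreated. The brighter set lay close around the floor, with the untreated array under it, and the largest of its differences was at least 1.24-fold, between scrambled and untreated. At this floor the array labelled antisense was the one array with both chains of the IL-6 receptor above it, Il6st only just so. On the untreated array both would be above a floor of 1 robust standard deviation, 298.0.

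Of the interferon receptor group, Ifnar1 was above the floor on the array labelled antisense and on no other. It encodes 1 chain of the receptor for type I interferons, alpha and beta. Ifnar1 read 823.3 on the array labelled antisense, -197.4 after the scrambled oligonucleotide and -539.1 without treatment. Both controls were below 0, where mismatch probes outshine perfect-match probes, and the array labelled antisense was at least 1.38-fold higher than either. This bound is under the yardstick of 1.45-fold and does not say whether the difference itself is. Its partner chain Ifnar2 read 869.9, 475.1 and 565.0 in its brighter probe set, so that chain too was above the floor on the array labelled antisense alone, by at least 1.46-fold, a bound again, where the yardstick was 1.53-fold. A second Ifnar2 probe set was below the floor on the 3 arrays. Ifngr1, the ligand-binding chain of the interferon gamma receptor, read 448.5, 269.3 and 578.9 on the arrays labelled antisense, scrambled and untreated, the last just under the floor. Ifngr2, its signalling partner, read -53.16, -155.8 and 131.7.

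The floor hides how far apart the low values lie. Differences of the intensities themselves were set beside the same yardstick built on the linear scale, a step added after the values were seen. Past it were Ifnar1 between the array labelled antisense and untreated, at 1360 against 413, and between it and scrambled, at 1020 against 413. Il6ra was past it between the array labelled antisense and scrambled, at 843 against 723. Between scrambled and untreated Il6ra differed by -733, but the yardstick is built on these same arrays. So 1, 2 and 1 of the 9 chains were past it against untreated, against scrambled and between the controls, where 8.44%, 10.9% and 5.26% of all 12588 probe sets were, and counts this small are not set apart from that background. The yardstick for Ifnar1 comes from probe sets with a mean near 0, and its differences rest in part on negative values, which are no RNA level.

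**Figure D2:**
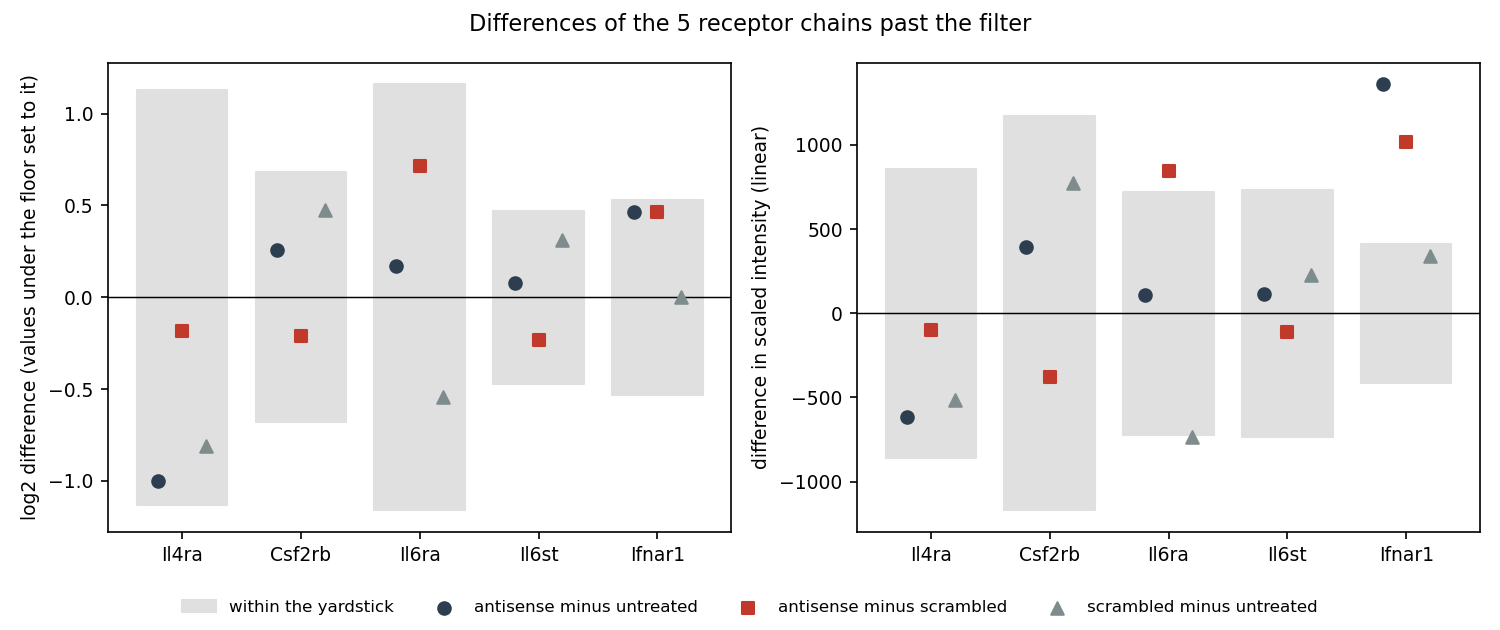
Differences between arrays for the 5 receptor chains that entered the comparisons (x axis), as log2 differences with values under the floor set to it (left) and as differences of scaled intensity (right), with the yardstick of error as grey bars. No point leaves the bars on the left, where points with 1 value under the floor are lower bounds and the controls of Ifnar1, both at the floor, differ by 0; Ifnar1 and Il6ra leave them on the right.

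RefSeq sequence around the transcription start, 250 bases before to 50 after on GRCm38.p6, is shown for Ifnar1 and Il6ra, the chains whose arrays lie on both sides of the floor and differ past the linear yardstick. They were chosen after their values were seen, and no binding was measured. Capitals mark a match to TTCNNNGAA, the core bound by most STAT factors, searched on both strands. Ifnar1 is at chr16:91484965-91485264 on the plus strand and Il6ra at chr3:89913147-89913446 on the minus strand.
Ifnar1: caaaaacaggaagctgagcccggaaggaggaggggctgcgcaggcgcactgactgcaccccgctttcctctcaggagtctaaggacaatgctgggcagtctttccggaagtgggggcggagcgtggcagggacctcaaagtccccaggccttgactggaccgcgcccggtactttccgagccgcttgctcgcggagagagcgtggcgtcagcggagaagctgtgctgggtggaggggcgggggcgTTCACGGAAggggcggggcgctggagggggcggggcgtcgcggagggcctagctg
Il6ra: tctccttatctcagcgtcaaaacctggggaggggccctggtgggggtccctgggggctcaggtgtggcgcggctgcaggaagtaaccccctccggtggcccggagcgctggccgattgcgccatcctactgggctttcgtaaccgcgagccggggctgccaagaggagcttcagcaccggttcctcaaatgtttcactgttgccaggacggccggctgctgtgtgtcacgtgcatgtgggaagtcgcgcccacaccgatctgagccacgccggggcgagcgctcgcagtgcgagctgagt

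The Ifnar1 window holds 1 match, which starts at base 246 of the 300, and the Il6ra window holds none. Among the other chains with a window in the table, Il7r has 1 match, and Il2rg, Il4ra, Il5ra, Il6st, Ifngr1 and Ifngr2 have 0. Of 32851 such windows, 8.30% hold the motif. A match is one of letters and not shown to be a bound site. The windows of Ifnar1, Il6ra, Il6st and Ifngr2 are rich in G and C, at 68.3%, 66.0%, 68.3% and 74.3%, those of Il5ra and Il7r less so, at 44.3% and 45.7%.

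By position, most but not all interferon chains are neighbours: Ifngr1 lies on chromosome 10. Ifnar2, Il10rb, Ifnar1 and Ifngr2 follow each other on chromosome 16 in the RefSeq table. Il10rb, the shared chain of the IL-10 receptor, read 4723, 4502 and 2714 on the arrays labelled antisense, scrambled and untreated. Within this run of neighbours Il10rb was thus above the floor on the 3 arrays, Ifnar1 and Ifnar2 on 1 and Ifngr2 on none. Csf2rb2 and Csf2rb are likewise neighbours on chromosome 15.

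Among other receptor chains of the same families, 20 of the 25 listed were on the array and 8 entered the comparisons. Of these, 0 were at least 2-fold apart from untreated, where 4.85% of all probe sets were, and 1 was at least 2-fold lower than scrambled, where 6.02% were in either direction. That one is Csf3r, the receptor of granulocyte colony-stimulating factor, which read 1068 on the array labelled antisense, 2966 after the scrambled oligonucleotide and 1843 without treatment, a log2 difference of -1.47 against scrambled, while its 2 other probe sets were below 0 on the 3 arrays. The spike-in scaling, which adds 0.51, would take this difference of Csf3r just under 2-fold. The median log2 difference of the 8 was 0.01 against untreated and 0.19 against scrambled, where the median over the 4643 named genes that entered was 0.00 in both. In these and later medians a gene with both values under the floor counts as 0, as Il2rb does against untreated. Of the ligands of the chains, 22 of 33 were on the array and 18 were above the floor on no array, among them Il2, Il4, Il5, Il6, Il7, Csf2, Ifng and Ifnb1. Ifna5, which encodes an interferon alpha and is measured by a family probe set that can bind several such genes, read 2366 on the array labelled antisense, 770.2 after the scrambled oligonucleotide and 966.1 without treatment. It was higher than scrambled by 1.62 and than untreated by 1.29 on the log2 scale. That is 1 of the 4 ligands that entered, where 6.02% and 4.85% of all probe sets were at least 2-fold apart. Family probe sets of the same kind did not share this pattern. Ifna9 and Ifnab were above the floor on the scrambled array alone, at 673.6 and 637.5. Ifna2, Ifna4, Ifna7 and Ifna15 were below the floor on the 3 arrays.

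No kinase or STAT factor that serves these chains could be shown to be 2-fold apart. Of 9 on the array, 7 entered and 0 were at least 2-fold apart in the comparisons of the array labelled antisense, where 4.85% and 6.02% of all probe sets were, and the median of the 7 was 0.00 against untreated and -0.16 against scrambled. The 0.00 is the value set for Stat4, which was under the floor on both of those arrays, and is no measured difference. Jak3, the kinase that binds the common gamma chain, read 2918 on the array labelled antisense, 1708 after the scrambled oligonucleotide and 2329 without treatment, in a probe set whose suffix marks shared sequence. Its log2 difference of 0.77 against scrambled was past the yardstick of 0.68, and its difference of 0.33 against untreated was within it. Jak1, the kinase that most of these receptors use, read 1989, 2026 and 2520, and Stat6, the factor activated by IL-4, read 2432, 2714 and 2948. Stat5a, activated by IL-2, IL-5 and IL-7, differed in its brighter probe set by -0.13 from untreated and -0.57 from scrambled, and by 0.87 and 0.13 in the other, all within the yardstick. Of the inhibitors of this pathway 15 of 19 were on the array and 10 entered. Socs5, a suppressor described for IL-4 receptor signalling, read 755.9 on the array labelled antisense, 1564 after the scrambled oligonucleotide and 834.9 without treatment and was the 1 inhibitor at least 2-fold apart, lower than scrambled with a log2 difference of -1.05, within the yardstick of 1.19. That is 1 of 10 where 6.02% of all probe sets were. The spike-in scaling adds 0.51 to this difference of Socs5, which would then be under 2-fold. Ptpn6, the phosphatase SHP-1, read 15620, 20040 and 20850, log2 differences of -0.42 against untreated and -0.36 against scrambled, both past the yardstick of 0.33, and these signs turn with the spike-in scaling, which adds 0.63 and 0.51.

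**Figure D3:**
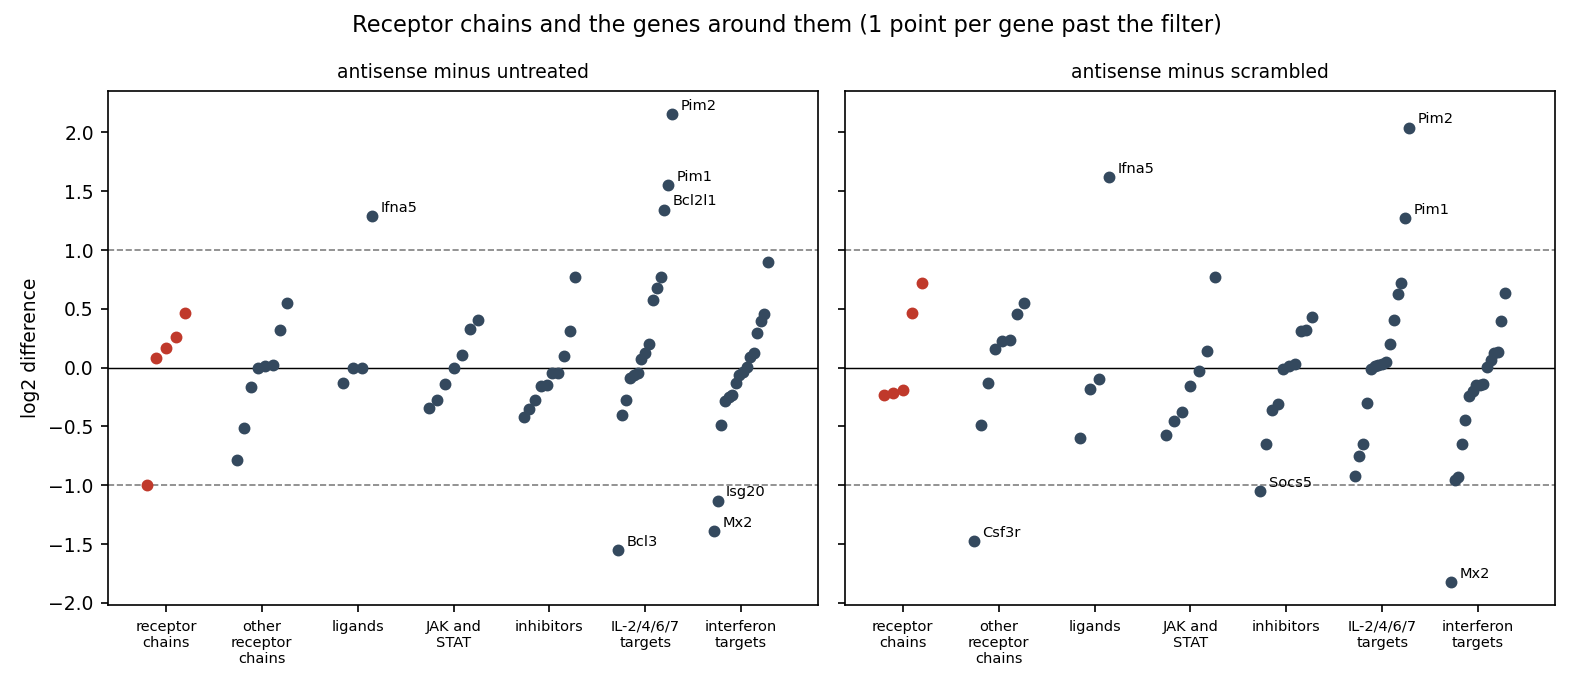
Log2 differences (y axis) of the array labelled antisense from the untreated array (left) and the scrambled array (right), 1 point per gene that entered, for the receptor chains (red) and the lists of genes around them (dark). Dashed lines mark 2-fold; none of the red points is past them, though some are lower bounds, and the points past them carry gene names.

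Some target genes of these receptors were past 2-fold. Of 20 target genes of IL-2, IL-4, IL-6 and IL-7 signalling on the array, 15 entered, and 3 were at least 2-fold higher and 1 was lower than untreated, with 2 higher and 0 lower than scrambled, where 4.85% and 6.02% of all probe sets were at least 2-fold apart in either direction. This list was chosen with earlier results of these data known, so a share above that of all probe sets is no finding about it. The higher ones were Pim2 and Pim1, kinases of cell survival, with log2 differences of 2.16 and 1.55 from untreated and 2.04 and 1.27 from scrambled, and Bcl2l1, which encodes the survival protein Bcl-xL, with 1.34 from untreated and 0.72 from scrambled. Bcl3, a partner of NF-kB, was the lower one, at 358.4 against 1748 untreated, and read 1002 on the scrambled array. The medians of the 15 were 0.12 against untreated and 0.03 against scrambled. Bcl2 was under 2-fold apart in its brightest probe set, at 4423, 2868 and 2770 on the arrays labelled antisense, scrambled and untreated. A dimmer Bcl2 set read 1311, 667.2 and 442.8 in the same order, at least 2.2-fold above untreated. This bound does not say whether the yardstick of 2.31-fold is passed. The dimmest Bcl2 set read 1165, -671.4 and -362.8, a bound of 1.96-fold over either control. For Junb, an AP-1 factor gene, a dimmer probe set read 1235, 1004 and 3131 on the arrays labelled antisense, scrambled and untreated. Both oligonucleotide arrays were thus lower than untreated there, at -1.34 and -1.64 on the log2 scale. In the brighter set they differed from untreated by 0.07 and -0.13. Fcer2a, the CD23 gene that IL-4 induces in B cells, and Socs3, induced by IL-6, were below the floor on the 3 arrays.

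Of 34 interferon target genes on the array, 16 entered, and 18 were below the floor throughout, among them Isg15, Ifit1, Ifit3, Mx1, Irf9 and Cxcl10. Of these, 0 were shown to be at least 2-fold higher, while 2 were at least 2-fold lower than untreated and 1 than scrambled, against the same 4.85% and 6.02% of all probe sets. Mx2, an antiviral GTPase gene, read 538.9 on the array labelled antisense, below the floor, 2107 after the scrambled oligonucleotide and 1560 without treatment, so it was at least 3.54-fold lower than scrambled and at least 2.62-fold lower than untreated. Isg20, an exonuclease gene, read 3510, 6690 and 7684, log2 differences of -1.13 against untreated and -0.93 against scrambled, past the yardstick of 0.46. With the spike-in scaling, which adds 0.63 and 0.51, neither difference of Isg20 would be 2-fold. That scaling also raises Mx2 on the array labelled antisense relative to both controls, so the lower readings depend on it. The medians of the 16 were -0.05 and -0.15. The receptor genes and these target genes come from the same arrays, and no relation between them was tested.

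Csf2rb was the one chain with a pattern that could be set beside those of other genes. Over the 3 arrays, the 4 genes nearest to its log2 values, each centred on its own mean, were Pcgf2, Samd10, Nefh and Rnps1, at distances of 0.013 to 0.025. Rnps1 read 20680 on the array labelled antisense, 24530 after the scrambled oligonucleotide and 17350 without treatment. Among 3960 candidate probe sets, 75 lay within a distance of 0.1, so with 3 arrays a like pattern is common.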

How the data were processed

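The authors deposited intensity values, linear in scale, for 12654 probe sets on each array, 66 of them controls of the manufacturer. The software was not given in the sources used here. From 24.8% to 27.9% of values are at or below 0, and the mean after removal of 2% at each end is 1500.0 on each array, so arrays had been scaled. Here the arrays were brought to a common trimmed mean over the 12588 other probe sets, values under the floor of 595.9 were raised to it, and log2 values were computed. The 6127 probe sets whose mean was above the median, which is the floor itself, entered.

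Platform annotation gave 1 symbol for 10298 probe sets, and 10279 matched RefSeq by gene identifier. A gene was represented by its brightest probe set. From the other lists, genes at least 2-fold apart from a control were named. Of the 4 with the largest differences while above the floor on the 3 arrays, only some are named. Members and lists were chosen with earlier results of these data known. Python 3.11.15 was used; counting was tested on simulated data. Alternatives covered floor, scaling, filter and probe set choice. The number of arrays limits precision.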

Additional observations from a re-analysis of the deposited data

How the results depend on the processing

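No paired analysis was possible because each group has 1 array, and for the same reason no array could be left out. The counts of 0 receptor chains at least 2-fold apart depended on the floor. With a floor of 1 robust standard deviation they became 2 against untreated (Il4ra and Ifnar1), 2 against scrambled (Il6ra and Ifnar1) and 1 between the controls (Il6ra), and at the 40th percentile of values 1 (Il4ra), 1 (Il6ra) and 2 (Il6ra and Ifngr1). A generalised log gave 1 against scrambled and 1 between the controls, Il6ra in both. Under both the 40th percentile and the generalised log, the filter on the mean left Ifnar1 out of these counts, although its log2 differences on the array labelled antisense were past 2-fold, at 2.21 against either control under the first and at 2.80 against untreated and 2.10 against scrambled under the second. Quantile normalization gave 1 against untreated (Il4ra), and spike-in scaling gave 1 against scrambled (Il6ra). The count stayed at 0 in each comparison with a floor of 3 robust standard deviations, deposited values, median scaling, no filter, only probe sets above the floor on the 3 arrays, no suffixed probe sets and the mean over probe sets of a gene. Several of these could not change it. No chain has a suffixed probe set, and dropping the filter adds only chains under the floor on the 3 arrays. Only 1 chain, Csf2rb, is left when all 3 arrays must be above the floor, and 3 pass with a floor of 3 robust standard deviations. The deposited values had already been scaled, and the mean over probe sets alters Il6st alone. The counts over all probe sets moved from 297, 369 and 190 to 710, 865 and 545 with a floor of 1 robust standard deviation, to 157, 210 and 92 with 3, to 786, 911 and 607 at the 40th percentile, and to 160, 198 and 95 for probe sets above the floor on the 3 arrays, where fewer are tested. A generalised log gave 297 between the controls. Spike-in scaling gave 1016 against untreated and 828 against scrambled and moved the share of higher ones from 54.5% to 96.2%, from 53.1% to 91.8% and, between the controls, from 54.7% to 71.2%. It adds 0.63, 0.51 and 0.12 to log2 differences above the floor. The mean over probe sets has no count over all probe sets. Of 324 alternative values of the chains' log2 differences, 29 were counted as moved, for chains that entered by more than their yardstick. Others of the 29 are of Il7r, Il5ra, Ifngr1 and Ifngr2, which did not enter and for which no log2 yardstick is given here. The 324 include values from settings that could not change them. On the linear scale, added after the data were seen, the yardstick was passed by 1, 2 and 1 chains, and a log2 yardstick over 100 or 1000 probe sets by 0 in each comparison.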
